A study of Homo sapiens with 4 samples.

Results

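The genes described here are 10 genes of the NRF2 response and of heme metabolism: NFE2L2, which encodes NRF2, KEAP1, GCLC, GCLM, TXNRD1, SRXN1, NQO1, HMOX1, ALAS1 and FTH1. They were taken by name: every probe for a gene in the scanner files whose gene name equalled one of these was used, which gave 12 of 34127 probes and 10 of 27274 gene names. The rule reads gene names and uses no measured value, but the genes themselves were chosen with earlier results of these data known. Expression was measured once in each of 4 groups of human prostate cancer cells on 1-colour Agilent arrays. The groups were untreated LNCaP cells (LNCaP control), LNCaP cells given 10 µM atorvastatin for 24 h (LNCaP ATO), untreated PC3 cells (PC3 control) and PC3 cells given 10 µM atorvastatin for 24 h (PC3 ATO). All were grown in RPMI medium with 10% serum, and the labels name no vehicle for the controls. Atorvastatin is a statin, a drug that inhibits HMG-CoA reductase of the mevalonate pathway. LNCaP is an androgen-sensitive line from a lymph node metastasis, and PC3 is a line from a bone metastasis that lacks the androgen receptor. Each is an established line, so the data speak for these 2 lines only.

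KEAP1 is a sensor protein that holds NRF2 in the cytoplasm and hands it to a ubiquitin ligase for degradation. Oxidants and electrophiles release NRF2, which then pairs with small MAF proteins at antioxidant response elements and turns on genes for glutathione, thioredoxin, NADPH and detoxification. Heme metabolism meets this pathway at HMOX1, which breaks heme down and is held off by the heme-binding repressor BACH1, and at the ferritin genes, which store the iron set free.

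Promoter sequence was read for the letters of the antioxidant response element, since targets of NRF2 are known for this element. RefSeq start-site windows on GRCh38.p14, each 300 bases long with 250 before the start and 50 from it onward, were listed for 8 of the 10 genes, as 11 windows. The core TGACNNNGC was searched on both strands, where the other strand reads GCNNNGTCA. It was found in 4 of these 11 windows, from 3 genes, and in 13.3% of all 35116 windows. The 6 matches are shown 5′ to 3′ on the strand of the gene with 10 bases on either side, and capitals mark the 9 bases of the core. Both KEAP1 matches lie in the same window and their flanks overlap, and the first and middle TXNRD1 matches lie in the same window too. The matches are these.
KEAP1, chr19:10502807-10502835, minus strand, core on the gene's strand: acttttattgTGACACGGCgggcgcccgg
KEAP1, chr19:10502784-10502812, minus strand, core on the opposite strand: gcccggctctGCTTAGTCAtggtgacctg
GCLM, chr1:93909446-93909474, minus strand, core on the opposite strand: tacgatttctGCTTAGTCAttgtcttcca
TXNRD1, chr12:104215670-104215698, plus strand, core on the gene's strand: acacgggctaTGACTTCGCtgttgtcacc
TXNRD1, chr12:104215761-104215789, plus strand, core on the opposite strand: gcgtccttcgGCTCCGTCAgttcccacag
TXNRD1, chr12:104286920-104286948, plus strand, core on the opposite strand: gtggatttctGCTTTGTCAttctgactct
In GCLM, the regulatory subunit of glutamate-cysteine ligase, the core began 34 bases before the start site. The KEAP1 core with the same 9 letters as that of GCLM began 31 bases before its start site, and the other KEAP1 core 54 bases before. In TXNRD1 the cores began 99, 8 and 102 bases before their start sites, and the one at 8 bases ran across the start. The windows of NFE2L2, GCLC, SRXN1, NQO1 and ALAS1 held no match, which says only that these letters are not in them. A match is a run of letters, and the arrays do not measure binding.

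The 4 arrays shared 1 slide and 1 scan. Each group had a position of its own on the slide, so position and group cannot be told apart. Each array had 44495 spots, 48.5% to 52.9% of the gene spots were well above background, and none was saturated. Intensities below are the processed signal in scanner units, and each log2 difference was taken after each array was divided by its 75th percentile over probes, which was 497 units for LNCaP control, 533 for LNCaP ATO, 588 for PC3 control and 569 for PC3 ATO. With 1 array per group there was no replicate check within a line. The error of a single spot was read from probes printed 10 times: the log2 ratio of ATO to control between spots of the same probe had an SD of 0.19 in either line. That spread is technical. A difference was called at 1.5-fold between ATO and control, which is 0.58 on the log2 scale, and at 2-fold between the untreated lines. The lines matched their labels, with KLK3, the prostate-specific antigen, at 65987 and 65646 units in LNCaP and not well above background in PC3, and CAV1, a caveolar coat protein, at 12387 and 5019 units in PC3 and not well above background in LNCaP. In a bulk RNA sample fewer expressing cells and less RNA per cell cannot be told apart.

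HMOX1 was higher with ATO in both lines and past the call in PC3 only. FTH1 and NQO1 were higher in both lines by less than the call. GCLC, GCLM, TXNRD1, SRXN1 and KEAP1 differed from their controls by no more than 0.20 log2, once rounded, in either line. In PC3 cells 2 of the 9 genes with a value were called, HMOX1 higher and ALAS1 lower, beside 18.5% of the 13815 genes with a value in that line. In LNCaP cells 1 of 9 was called, ALAS1 higher, beside 4.75% of 13739 genes. The median log2 difference of the 9 genes was 0.05 in LNCaP and -0.04 in PC3, beside 0.00 and -0.01 over all genes. NFE2L2 was not well above background on any array.

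**Figure D1:**
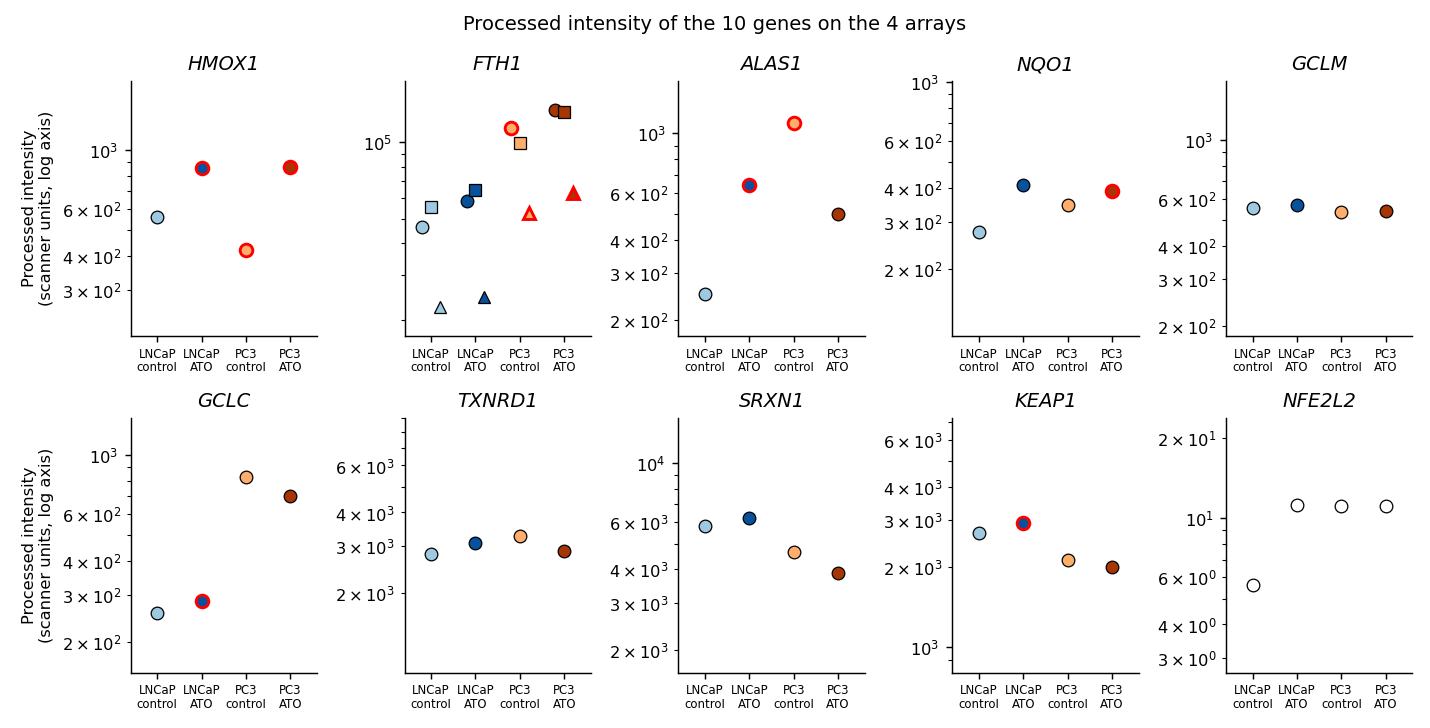
Processed intensity (scanner units, log axis) of each gene on the 4 arrays, 1 panel a gene. Each marker is 1 probe (the mean over spots where a probe was printed 10 times), FTH1 has 3 probes drawn as 3 shapes, an open marker is not well above background, and a red rim means that at least 1 of its spots lay in bright local background. HMOX1 is higher with ATO in both lines, while ALAS1 moves up in LNCaP and down in PC3.

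HMOX1 encodes heme oxygenase 1, the inducible enzyme that opens the heme ring and yields biliverdin, carbon monoxide and iron. Its probe (chr22:34120122-34120181 on hg18, plus strand) was printed 10 times. The intensity was 560 units in LNCaP control and 858 in LNCaP ATO, and 423 in PC3 control and 864 in PC3 ATO. Both ATO arrays were therefore high and both controls low, and the PC3 control was the lowest of the 4. Single spots ran from 511 to 599 units in LNCaP control and from 756 to 921 in LNCaP ATO, and from 373 to 483 units in PC3 control and from 747 to 1025 in PC3 ATO. The spots of ATO and control did not overlap in either line, while those of the 2 ATO arrays did. Such spots carry technical spread only, and the share of all repeated probes without overlap was not counted. KEAP1, also printed 10 times, had no overlap between the 2 control arrays either, at a log2 difference of -0.58. After scaling, HMOX1 was 1.43-fold higher with ATO in LNCaP, a log2 difference of 0.52 ± 0.06 (SD over 10 spot pairs of the same 2 arrays), which is under the call. In PC3 it was 2.11-fold higher, 1.08 ± 0.11 over 10 spot pairs, and past the call. All 10 pairs were higher in each line, between 0.42 and 0.59 in LNCaP and between 0.93 and 1.34 in PC3.

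**Figure D2:**
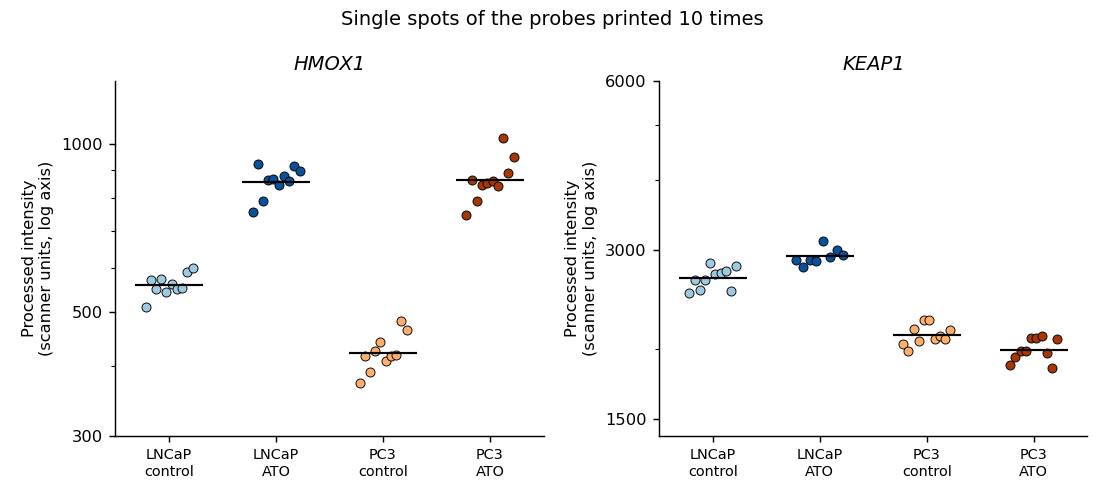
Processed intensity (scanner units, log axis) of the single unflagged spots of HMOX1 (left) and KEAP1 (right) on the 4 arrays, with a line at the mean of the log2 values. The 10 HMOX1 spots of each ATO array lie above all spots of its control, and the KEAP1 spots of ATO and control overlap in both lines.

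The HMOX1 spots were spread over the array, and the log2 difference was 0.49 in the upper part and 0.53 in the lower part in LNCaP, and 1.07 and 1.08 in PC3. Under the other ways of scaling and background correction the log2 difference ran from 0.46 to 0.66 in LNCaP and from 0.92 to 1.27 in PC3, and only spike-in scaling took the LNCaP value past 1.5-fold. The arrays allow a single replicated test, limma with both lines as replicates of the treatment and line as a block, which leaves 1 residual degree of freedom. HMOX1 had a mean log2 difference of 0.80 ± 0.20 (SE) there, higher in both lines, with a limma adjusted p = 0.762 over 11902 genes. None of the 11902 genes passed (0% called), and 532 of them, 4.47%, had an unadjusted limma p under 0.05. HMOX1 was the only member among these, with an unadjusted limma p of 0.0195, and the other 8 members tested had an unadjusted p between 0.0766 and 0.967. The difference between the lines was not tested.

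The 3 genes whose 4 values, centred on their own mean, lay nearest to HMOX1 among 11016 genes well above background on all arrays were C10orf110, FLJ35390 and DNAJB9, at Euclidean distances of 0.11, 0.12 and 0.13 log2. DNAJB9, a chaperone of the endoplasmic reticulum, was higher by 0.34 in LNCaP and by 1.12 in PC3. C10orf110 was higher by 0.59 and 0.97, and FLJ35390 by 0.50 and 0.99; the C10orf110 spot had bright local background on PC3 ATO. All 3 were, like HMOX1, lower in PC3 control than in LNCaP control. These shared directions follow from picking the genes by the same 4 values.

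FTH1 encodes the heavy chain of ferritin, which oxidises iron and stores it. It had 3 probes, of which 2 overlap (chr11:61488614-61488672 and chr11:61488647-61488706, minus strand, hg18) and the other lies beside them (chr11:61488852-61488911). The brightest of them, by its scaled log2 value averaged over the 4 arrays, read 55472 units in untreated and 64683 in treated LNCaP cells, and 99532 units in untreated and 131500 in treated PC3 cells. The upstream probe read 46179, 58505, 113612 and 133645 units, and the remaining probe 22457, 24601, 52675 and 63288. All 3 placed the arrays in this same order from low to high, the LNCaP control lowest and the treated PC3 cells highest. Their log2 differences between ATO and control were 0.12, 0.24 and 0.03 in LNCaP and 0.45, 0.28 and 0.31 in PC3, all above 0 and under the call. The upstream probe lay in the lower part of the array, where the single-spot SD in LNCaP was 0.24, as large as its difference. In PC3 the upstream and the remaining probe had bright local background on at least 1 array, and such spots had an SD of 0.27. The brightest probe had none, and it passed the call in PC3 under scaling by the 50th percentile (0.65). Between the untreated lines FTH1 was higher in PC3 by 0.60, 1.06 and 0.99 log2, so that only the upstream probe reached 2-fold. FTH1 has many processed pseudogenes in the human genome, and these probes may read their transcripts too. FTL, the light chain of ferritin, was higher with ATO by 0.06 in LNCaP and 0.27 in PC3.

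ALAS1 encodes the mitochondrial enzyme of the first and rate-limiting step of heme synthesis. It had 1 probe and 1 spot (chr3:52221317-52221376, plus strand, hg18), which lay at row 520 of 532. The intensity was 252 units in untreated and 640 in treated LNCaP cells, and 1090 units in untreated and 501 in treated PC3 cells. The spot was thus bright on LNCaP ATO and PC3 control and dim on the arrays they were compared with. This gave a log2 difference of 1.25 (2.37-fold higher) in LNCaP and of -1.07 (2.11-fold lower) in PC3, and a level 3.66-fold higher in PC3 control than in LNCaP control.

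Those are the same 2 arrays on which the local background around the spot was bright. It was 238 units on LNCaP ATO, where the limit for bright background (the median plus 3 scaled median absolute deviations) was 143, and 142.5 units on PC3 control, where the limit was 120. It was 120 units on LNCaP control and 84 on PC3 ATO, both under their limits. In the last 38 rows, 90.1% of the spots on LNCaP ATO and 46.7% on PC3 control had bright local background, against 0.04% on LNCaP control and 0.46% on PC3 ATO. In LNCaP cells 9.5% of the spots in these rows were past 1.5-fold higher, and between 0.60% and 2.61% in the other bands of 38 rows. Past 1.5-fold lower were 5.10% in these rows, and between 0% and 3.85% in the other bands. Neighbours of a spot were the spots well above background on both arrays in the same fixed cell of 38 rows by 17 columns, itself included. For ALAS1 there were 286 in LNCaP, of which 14.7% were past 1.5-fold higher. In PC3 there were 270, of which 25.2% were past 1.5-fold lower. The ALAS1 spot lay above 97.6% of its neighbours in LNCaP, and 6.67% of them lay below it in PC3.

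**Figure D3:**
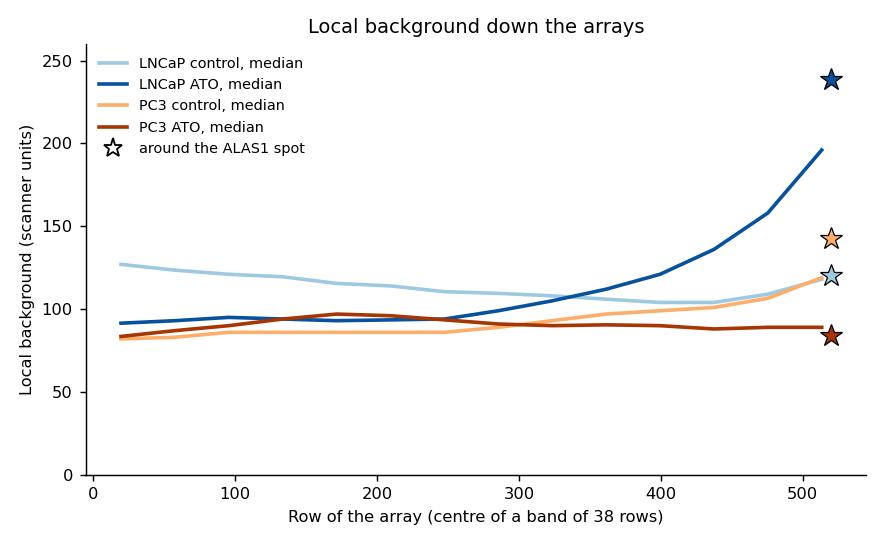
Median local background (scanner units) in 14 bands of 38 rows down each array (lines), with the local background around the ALAS1 spot on each array (stars). On LNCaP ATO the median is 196 units in the last band, and the ALAS1 spot lies at 238; on PC3 ATO these are 89 and 84.

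The 3 genes with values nearest to those of ALAS1 were CAPN7, BC030764 and TUBE1, at distances of 0.21, 0.33 and 0.38 log2. Their spots lay at rows 521, 530 and 528, and each had bright local background on LNCaP ATO and PC3 control and on neither other array. Once spots in bright local background were left out, ALAS1 had no value. After each part of the array was centred on its own median it stayed past 1.5-fold, at 1.15 in LNCaP and -0.87 in PC3. No other ALAS1 probe could be set beside this one, and the part of the bright background in its values was not tested.

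The other genes of heme synthesis, 14 in the list of which 13 had a value, gave no call. None was past 1.5-fold in either line, beside 4.75% and 18.5% of all genes. In PC3, CPOX was called lower with spike-in scaling and normexp, and 1 gene was called higher with the 50th percentile. In LNCaP 10 of 13 lay above 0, beside 6672 of 13739 genes, and in PC3 10 of 13 lay below 0, beside 6999 of 13815 genes, and the medians were 0.04 and -0.04. The PC3 median was 0.15 under scaling by the 50th percentile. FECH, which inserts the iron into heme, was at 0.11 and 0.08, where the PC3 value turned below 0 under spike-in scaling and normexp. CPOX, an enzyme of a late step, was at 0.30 in LNCaP, with bright local background on the ATO array, and at -0.52 in PC3. ALAS2, the erythroid form of the first enzyme, was not well above background on any array.

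Among the genes of heme breakdown and transport, HMOX2, the constitutive heme oxygenase, differed by 0.01 log2 in LNCaP and 0.07 in PC3, and both signs turned under some alternatives. BLVRA, a biliverdin reductase acting just after heme oxygenase, read 9665 and 12520 units in untreated and treated LNCaP cells and 7448 and 11869 units in untreated and treated PC3 cells. It was higher with ATO by 0.27 in LNCaP, where its spot had bright local background, and by 0.72 in PC3, where it was called except under normexp (0.27). BLVRB, the other biliverdin reductase, was at -0.02 and 0.51. BLVRA was the only gene called of 8 with a value in PC3, beside 8.2% of all genes called higher, and none of 10 was called in LNCaP, beside 4.75% called in either direction. In the iron list, TFRC, the transferrin receptor, was at -0.02 in LNCaP (-0.92 with outlier spots kept) and -0.28 in PC3, and TFR2, its homologue, was at -0.63 in LNCaP from 91.5 and 63.1 units, under the call with spike-in scaling and normexp. No gene of the iron list was called in PC3, of 9 with a value, beside 18.5% of all genes. In LNCaP TFR2 was the only gene of this list called, of 12 with a value, beside 4.75% of all genes.

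NQO1 encodes a quinone reductase and is a standard readout of NRF2 activity. Its probe (chr16:68301775-68301834, minus strand, hg18) read 274 units in LNCaP control and 412 in LNCaP ATO, and 345 in PC3 control and 391 in PC3 ATO. Both ATO arrays were above their controls. The log2 difference was 0.48 (1.40-fold) in LNCaP, above 98.7% of the 317 neighbouring spots and under the call except with spike-in scaling (0.63). In PC3 it was 0.23 (1.17-fold), and the PC3 ATO spot lay in bright local background of 212 units, against a limit of 117. Spots in bright local background had a single-spot SD of 0.27 in PC3, so this value lay inside it. The limma mean over both lines was 0.36 ± 0.14 (SE), adjusted p = 0.762.

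GCLC and GCLM are the catalytic and regulatory subunits of glutamate-cysteine ligase, which makes the first and rate-limiting step of glutathione synthesis. GCLM (chr1:94125398-94125457, minus strand, hg18) read 556 and 569 units in LNCaP control and ATO, and 537 and 540 units in PC3 control and ATO. Its log2 differences were -0.07 and 0.05, both inside the single-spot SD, and both signs turned under spike-in scaling. GCLC (chr6:53470156-53470215, minus strand, hg18) read 256 and 285 units in untreated and treated LNCaP cells, and 827 and 705 units in untreated and treated PC3 cells. Its log2 differences with ATO were 0.05 in LNCaP, where the ATO spot had bright local background (149 units), and -0.18 in PC3. Both lay inside the single-spot SD. Under the alternatives the PC3 value ran from -0.39 with normexp to 0.01 with the 50th percentile. It was outside the SD with normexp, spike-in scaling (-0.28), quantile scaling (-0.20) and centring by part of the array (-0.22). The LNCaP value was just outside the SD with spike-in scaling and normexp (0.20 each). What separated the arrays for GCLC was the line: it was 2.73-fold higher in PC3 control than in LNCaP control, between 1.01 and 1.96 log2 under the alternatives.

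TXNRD1, the cytosolic thioredoxin reductase, and SRXN1, which repairs oxidised peroxiredoxins, are targets of NRF2 on the thioredoxin side. TXNRD1 (chr12:103257079-103257138, plus strand, hg18) read 2788 and 3071 units in untreated and treated LNCaP cells and 3267 and 2874 units in PC3 cells, with log2 differences of 0.04 in LNCaP and -0.14 in PC3. SRXN1 (chr20:575563-575622, minus strand, hg18) read 5820 and 6249 units in LNCaP and 4634 and 3888 units in PC3, with differences of 0.00 and -0.20. The PC3 value of SRXN1 lay just outside the single-spot SD of 0.19. Under the alternatives it ran from -0.30 with spike-in scaling to -0.01 with the 50th percentile. Neither gene had a value above its control in PC3, except TXNRD1 under scaling by the 50th percentile (0.06).

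NFE2L2 and KEAP1 are the factor and its sensor. The single NFE2L2 probe (chr2:177803939-177803998, minus strand, hg18) read 5.62, 11.2, 11.1 and 11.1 units, which is not well above background on any of the 4 arrays, so no fold is given for it. KEAP1 (chr19:10458262-10458321, minus strand, hg18) was printed 10 times and read 2673 units without and 2924 with ATO in LNCaP, and 2119 units without and 1993 with ATO in PC3. The spots of ATO and control overlapped in both lines, and the log2 differences were 0.03 and -0.04 (0.15 in PC3 under scaling by the 50th percentile), with an SD over spot pairs of 0.06 (8 pairs, since 2 spots were flagged on LNCaP ATO) and 0.05 (10 pairs). Set beside the 10 pairs of HMOX1, a probe printed as often on the same arrays, the KEAP1 pairs lay between -0.09 and 0.11 in LNCaP and between -0.12 and 0.06 in PC3.

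Between the untreated lines 2 of the 9 genes were past 2-fold, GCLC and ALAS1, both higher in PC3, beside 39.6% of 15237 genes (20.6% higher in PC3 and 19% lower). The ALAS1 spot had bright local background on PC3 control, and with such spots left out 1 gene, GCLC, was past 2-fold. HMOX1, KEAP1 and SRXN1 were lower in PC3 control by 0.65, 0.58 and 0.57 log2, and these 3 were past 2-fold under scaling by the 50th percentile, which put all genes at a median of -0.49. Spike-in scaling put that median at 0.38, and the KEAP1 and HMOX1 differences at -0.07 and -0.14. GCLM, TXNRD1 and NQO1 were at -0.29, -0.01 and 0.09, and the sign of each turned under at least 1 other scaling.

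**Figure D4:**
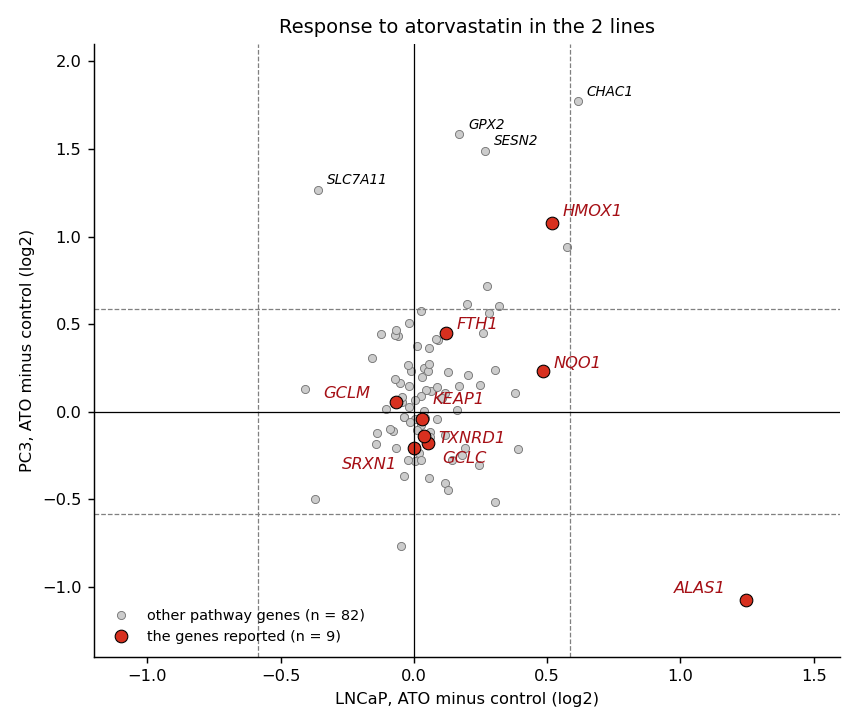
Log2 difference between ATO and control in LNCaP (x axis) and PC3 (y axis) for the 9 genes reported and for 82 other genes of the pathway measured in both lines, with dashed lines at 1.5-fold. HMOX1 lies up in both lines, ALAS1 up in LNCaP and down in PC3, and GCLC, GCLM, TXNRD1, SRXN1 and KEAP1 lie close to 0.

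The wider pathway was described from a list of 109 other genes in 8 roles, of which 108 were on the array. It was written with earlier results of these data known. In LNCaP cells 1 of 88 with a value was called higher, CHAC1, and 1 lower, TFR2, beside 2.77% and 1.99% of all genes, and the median was 0.03. In PC3 cells 13 of 93 were called higher and 1 lower, NFE2L3, beside 8.2% and 10.3% of all genes, and the median was 0.11. Over the alternative scalings the PC3 median ran from 0.01 with spike-ins to 0.30 with the 50th percentile, and the median of all genes from -0.10 to 0.19.

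Of the 13 higher genes in PC3, 6 were enzymes that reduce or oxidise quinones, carbonyls and sugars. They came from a list of 13, of which 12 had a value and 11 lay above 0. This list was written with earlier results of these data known, so the shares over all genes are no independent yardstick for it. Of all genes in PC3, 8.2% were called higher and 6783 of 13815 lay above 0. Once bright local background was left out, 7 genes of this list had a value and 3 were called higher. The aldo-keto reductase AKR1C1 read 82.2 units in PC3 control and 411 in PC3 ATO, a log2 difference of 2.37, and its other probe gave 2.17. AKR1C3 read 742 and 2022 units (1.49), AKR1B10 248 and 691 units (1.52, and 1.52 by its other probe), and AKR1B1 221 and 452 units (1.08). The aldehyde dehydrogenase ALDH3A1 read 120 and 290 units (1.32, and 1.34 by its other probe), and UGDH, which oxidises UDP-glucose, 375 and 694 units (0.94). All but UGDH were not well above background on either LNCaP array, so their response there was not measured, and AKR1C3 was at least 22.1-fold higher in PC3 control than in LNCaP control. UGDH read 304 and 484 units in LNCaP, a difference of 0.57, just under the call. AKR1C1, AKR1C3 and UGDH had bright local background on PC3 ATO, and the brightest probes of AKR1B1, AKR1B10 and ALDH3A1 had none on any array. The median of this list in PC3 was 0.67, and between 0.41 and 0.87 under the alternatives. AKR1C genes are close paralogues, and these probes could read more than 1 of them.

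**Figure D5:**
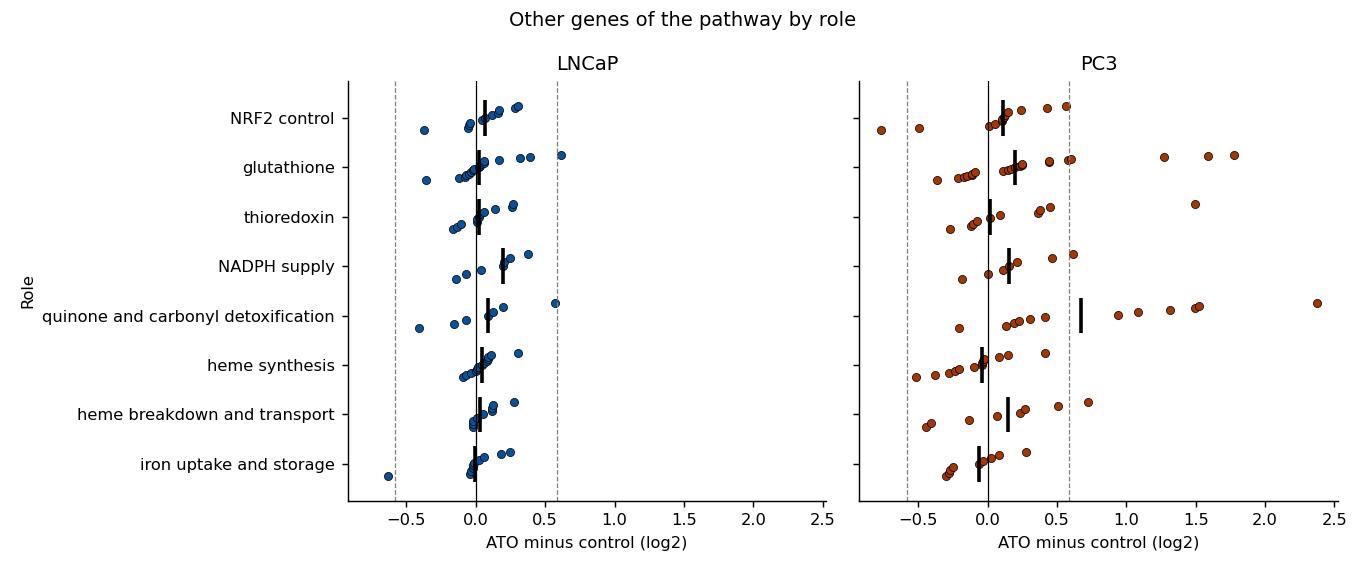
Log2 difference between ATO and control of the other genes of the pathway by role, in LNCaP (left) and PC3 (right). Each point is a gene measured on both arrays, the bar is the median of the role with bounds included, and dashed lines mark 1.5-fold. The quinone and carbonyl enzymes in PC3 have a median of 0.67, the highest of the 8 roles.

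In the glutathione list 4 of 21 were called higher in PC3, beside 8.2% of all genes, and 7 with the 50th percentile and 3 with spike-ins. SLC7A11, the cystine transporter, read 2420 and 2023 units without and with ATO in LNCaP, and 541 and 1261 units in PC3. It was 1.27 log2 higher with ATO in PC3 and 0.36 lower in LNCaP, where its spot on the ATO array lay in bright local background of 276 units. CHAC1, which degrades glutathione, was 1.77 higher in PC3, with 2.04 by its other probe, and 0.62 and 0.44 higher in LNCaP, where the call was lost with normexp and with the median over probes. GPX2, a glutathione peroxidase, read 267 and 775 units in PC3 without and with ATO (1.59), and GSTA4, a glutathione transferase, was 0.60 higher there, which was under the call with spike-in scaling and normexp. GSR, glutathione reductase, was 0.45 higher in PC3 by both its probes and under the call. In the thioredoxin list SESN2, a stress-inducible sestrin, was 1.49 higher in PC3 and was the only gene called of 11, and TXN and OSGIN1 were at 0.09 and 0.36. Of the genes that supply NADPH, IDH1 was called in PC3 (0.62), though not with spike-in scaling or centring by part of the array, and ME1 was at 0.11.

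Of the 12 regulators around NRF2 with a value in PC3, 10 lay above 0, beside 6783 of 13815 genes. None was called higher by its brightest probe, beside 8.2% of all genes. With the 50th percentile 2 were called higher, and the median, 0.11, was 0.02 with spike-ins. SQSTM1, the autophagy receptor that also binds KEAP1, was 0.28 higher in LNCaP and 0.56 in PC3, just under the call and past it with the 50th percentile, normexp and centring by part of the array. The small MAF genes MAFF and MAFG were at 0.11 and 0.43 in PC3, and MAFF was not well above background in LNCaP. The other MAFG probe was at 0.60 in PC3, just past the call, and at -0.01 in LNCaP. Both MAFG spots had bright local background on PC3 ATO. BACH1, the repressor of HMOX1, was at 0.07 and 0.12. NFE2L3, a relative of NRF2, was the only gene called lower in PC3, at 2132 units without and 1211 with ATO (-0.77), and not with the 50th percentile (-0.57).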

How the data were processed

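The deposited files are Agilent Feature Extraction 9.5.3.1 output, 1 per array, with probe coordinates on hg18. Per the file headers, the processed intensity that the authors deposited is background-subtracted and corrected for a multiplicative trend over the array. The deposited series table holds a linear ratio per probe, which lay within 2% of processed intensity over the array's 75th percentile for 99.4% to 99.95% of probes with a ratio above 1; its lowest value was 0.03, and the medians of its 4 columns were 0.07, 0.07, 0.09 and 0.08.

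The spots of a probe, without those called outliers, were combined as the mean of log2 intensity, less the array's 75th percentile over probes. Well above background means that over 50% of these spots had that call, and a gene was read from its brightest probe, that with the highest scaled log2 value averaged over the arrays. Where 1 of 2 arrays was not well above background, the value is a bound against the lowest signal called so. A bound that came out with the opposite sign was set to 0. Over all genes 1503 values in LNCaP and 1302 in PC3 were bounds, and these enter the medians and shares of all genes. Differences were called by fold, and both lines were tested with limma 3.58.1 in R 4.3.3 (line as block, two-sided, Benjamini-Hochberg over all genes), after a test on simulated data. With 4 arrays that test has little precision. Whether the samples were separate cultures is not given in the sources used here, so its p-values measure only the spread between these arrays.

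The members and lists were chosen with earlier results of these data known. Named were all members, 17 fixed genes of the wider list (1 of which is not reported here), every listed gene past 1.5-fold in a line, the 3 nearest profiles of each called member, and the markers KLK3 and CAV1; genes outside this rule (CPOX and those of opposite direction in the lines) were named after their values were seen. Symbols are those of the array design. Of the wider list, AKR1C2 was not matched by name, and TXNRD3 was read under the array name TXNRD3IT1. Whether that probe reads TXNRD3 itself was not checked. Exon and UTR positions of the probes were not used here. Alternatives were the 50th percentile, spike-in and quantile scaling, normexp (offset 50), centring within parts of the array, the median over probes, outlier spots kept, bright local background left out, no filter, the deposited ratios, an intensity trend in limma, and thresholds of 2-fold and 4-fold.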

Additional observations from a re-analysis of the deposited data

Results flagged for a closer look

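In 6 of the 92 listed genes with a value in both lines (6.52%) the ATO arrays lay on opposite sides of their controls in the 2 lines, each by more than the single-spot SD of 0.19. Over all genes this held for 751 of 11991 (6.26%). Spots in bright local background had a larger SD, 0.29 in LNCaP and 0.27 in PC3. With 1 array per group the difference between lines was not tested. ALAS1 was at 1.25 in LNCaP and -1.07 in PC3, so that PC3 minus LNCaP was -2.32 on the log2 scale, with bright local background at its spot on LNCaP ATO and PC3 control. SLC7A11 was at -0.36 and 1.27, a difference of 1.63, with bright local background on LNCaP ATO. CPOX was at 0.30 and -0.52, a difference of -0.82, with bright local background on LNCaP ATO. GPX1, a glutathione peroxidase, was at 0.39 and -0.21, a difference of -0.61, but its other probe was at 0.00 in LNCaP. NCOA4, the receptor for ferritin breakdown, was at 0.25 and -0.30, a difference of -0.55, and its other probe was at -0.10 in LNCaP. PTGR1, a prostaglandin reductase, was at 0.19 and -0.21, a difference of -0.40.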

How the results depend on the processing

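The labels carry no replicate numbers and each group holds 1 array, so ATO and control could be paired only by line. That pairing was the block in limma, and no array was left out. Of 176 member values recomputed, 165 moved by less than the single-spot SD, 11 moved by more, and no called value changed sign. This count does not measure stability, since some of the values could not move. None of them changed without the filter on dim probes, and a gene with 1 probe keeps its value under the median over probes. In PC3 the 50th percentile shifted every gene alike, and this moved every member with a value by more than the SD. The count of members past 1.5-fold in LNCaP, 1 in the report, was 3 with spike-in scaling, 2 without a filter on dim probes and 0 once bright local background was left out. The count in PC3, 2 in the report, was 1 once bright local background was left out and 3 with the 50th percentile. The count past 2-fold between the untreated lines, 2 in the report, was 5 with the 50th percentile, 3 with spike-in and with quantile scaling, 1 without bright local background and 0 at 4-fold. The median of the wider list in PC3, 0.11 in the report, was 0.30 with the 50th percentile. No member passed limma under any alternative; over all genes 5 passed with the 50th percentile, 2 with spike-ins and 0 otherwise. The called share of all genes in PC3 was split 1133 higher and 1419 lower in the report, 2154 and 910 with the 50th percentile, and 816 and 1846 with spike-ins. In LNCaP it was 380 and 273, against 603 and 183 with spike-ins, 164 and 190 with normexp, and 169 and 196 without bright local background. Between the untreated lines it was 3139 and 2897, against 2257 and 4737 with the 50th percentile and 4626 and 1511 with spike-ins. The wider list called higher in PC3 numbered 13, and 23 with the 50th percentile. Without a filter 10381 genes were called higher in LNCaP, where most added probes are not well above background. The cause of the other changes was not tested.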
